A study of Mus musculus with 8 samples.

Results

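Type I interferon-induced genes are the antiviral programme that a cell switches on when interferon alpha or beta binds its receptor. Sensors of foreign nucleic acid lead to interferon secretion, the receptor acts through the kinases Jak1 and Tyk2, and a complex that contains Stat2 and Irf9 then binds a short promoter element, the interferon-stimulated response element. The induced proteins block the translation, assembly or release of viruses, and several of them are themselves sensors or transcription factors of the pathway. Macrophages and fibroblasts both express such genes. The list examined here names 35 of these genes, of which 33 could be measured among 18193 genes in all. A gene counted as measured where the array had a probe set annotated with its symbol alone. Isg15 and Ifi44 had none. The 33 genes had 51 such probe sets, and each gene was read by the one that was brightest on average.

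Expression was measured in mesenchyme cells grown from the palates of C57BL/6J mouse embryos at embryonic day 13.5 and collected after 2 passages in culture. Mutant cells had the genotype Tgfbr2 fl/fl; Wnt1-Cre, in which Cre removes the floxed segment of the TGF-beta receptor gene Tgfbr2 in neural crest cells and their descendants. Control cells were Tgfbr2 fl/fl without Cre, so both groups carried the floxed alleles. The sample titles call the controls Tgfbr2 wildtype. Each genotype had 4 Affymetrix arrays, numbered 1 to 4 in the labels, which is few and limits precision. Nothing in the labels ties an array to an embryo of its own, so the p-values reflect variation among these samples, part of which may be technical. All values are log2 intensities, on which a difference of 1 is a doubling, and comparisons are mutant minus control.

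Some features of the arrays bear on what follows. On the brightest of its 3 probe sets Tgfbr2 read 12.63, 12.76, 12.55 and 11.73 in mutants 1 to 4, against 12.40, 12.38, 11.72 and 11.66 in controls 1 to 4, and differed by 0.37 (SE 0.27, adjusted p = 0.538 in limma). Its signal was thus not lower in mutants. The files do not place these probes inside or outside the floxed segment, so the level does not check the labels, and directions rest on the labels alone. The spiked bioB transcript, added at hybridisation, gave 8.24 to 8.79 for replicates 3 and 4 whatever the genotype, and 6.34 to 6.52 for replicates 1 and 2. Comparisons are therefore also given within each of these pairs of replicates. Of 14 mesenchyme markers 13 exceeded the median probe set, 6.94, on each of the 8 arrays, and so did 24 of 25 macrophage markers. Of all 18193 genes, each read by its brightest probe set, 11262 did so. Macrophages are not of neural crest origin, so Wnt1-Cre is not known to act in them. Fewer cells of a type and less RNA per cell cannot be told apart in such bulk samples.

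Promoters are shown first for 5 of the genes described below whose window holds the response element before the start. They show the letters that the complex with Irf9 is known to bind, and where they lie. Each stretch is the 160 bases before the transcription start in RefSeq, build GRCm38.p6, read 5′ to 3′ on the gene's strand. Capitals mark the core of the element, which is GAAA, any 2 bases and GAAA again, or its reverse complement. Ifit3 (chr19:34583369-34583528, plus strand) and Ifit1 (chr19:34640729-34640888, plus strand) encode proteins that bind viral RNA. Rsad2 (chr12:26456453-26456612, minus strand) encodes viperin, and Oas3 (chr5:120777660-120777819, minus strand) an oligoadenylate synthetase. Igtp (chr11:58199396-58199555, plus strand) encodes an immunity-related GTPase.
Ifit3: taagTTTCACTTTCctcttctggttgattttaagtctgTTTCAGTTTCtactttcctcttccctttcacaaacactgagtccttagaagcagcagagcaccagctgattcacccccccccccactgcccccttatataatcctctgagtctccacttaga
Ifit1: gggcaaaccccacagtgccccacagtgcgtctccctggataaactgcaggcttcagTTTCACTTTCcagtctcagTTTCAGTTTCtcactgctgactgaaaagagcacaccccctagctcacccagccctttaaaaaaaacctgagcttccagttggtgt
Rsad2: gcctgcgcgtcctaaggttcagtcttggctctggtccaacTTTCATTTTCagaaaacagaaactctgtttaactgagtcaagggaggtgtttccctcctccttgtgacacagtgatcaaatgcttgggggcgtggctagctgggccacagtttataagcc
Oas3: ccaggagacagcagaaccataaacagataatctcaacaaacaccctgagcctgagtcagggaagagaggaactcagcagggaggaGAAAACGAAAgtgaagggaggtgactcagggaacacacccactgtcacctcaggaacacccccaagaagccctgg
Igtp: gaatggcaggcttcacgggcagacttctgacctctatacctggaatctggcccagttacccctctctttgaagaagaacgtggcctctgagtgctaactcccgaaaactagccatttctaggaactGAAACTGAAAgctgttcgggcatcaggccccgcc

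Ifit3 and Ifit1 each held the core 2 times, beginning 156 and 122 bases before the start in Ifit3 and 104 and 85 bases before it in Ifit1, with the same letters in the same order along the strand. In Igtp the core began 34 bases before the start. Of the 35 listed genes 25 had a promoter in the table, a window from 250 bases before to 50 bases after the start. The core was found on either strand in 14 of the 25 (56%), against 3.99% of 27025 genes with a promoter. Among the measured genes the median difference between genotypes was 0.63 for the 13 whose window holds the response element and 0.35 for the 10 whose window does not. The ranges overlapped, at 0.19 to 1.33 and -0.49 to 1.05. Measured genes without a promoter in the table, Usp18 and Parp14 among them, are in neither group. A match describes letters only, and the array bears on no binding there.

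Almost every interferon-induced gene read higher in mutant cells, yet none passed the test over all genes. The difference was positive for 32 of 33 genes, against 48.3% of all genes, and its median was 0.63, against -0.00778 over all genes. In limma with Benjamini-Hochberg adjustment 0 of 33 passed a threshold of 0.05, which 0.0879% of all genes passed, and the smallest adjusted p was 0.135. At an unadjusted p under 0.05, 16 of 33 were higher in mutants and 0 lower, against 5.84% and 9.69% of all genes. The 4 mutant arrays lay above all 4 control arrays for 8 of 33 genes, against 2.89% of all genes, and the reverse was seen for 0, against 5.18%. The 8 were Usp18, Rsad2, Mx1, Ifih1, Dhx58, Parp9, Parp14 and Igtp. The list was proposed with such results of these data known, so these counts describe it and do not test it.

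**Figure D1:**
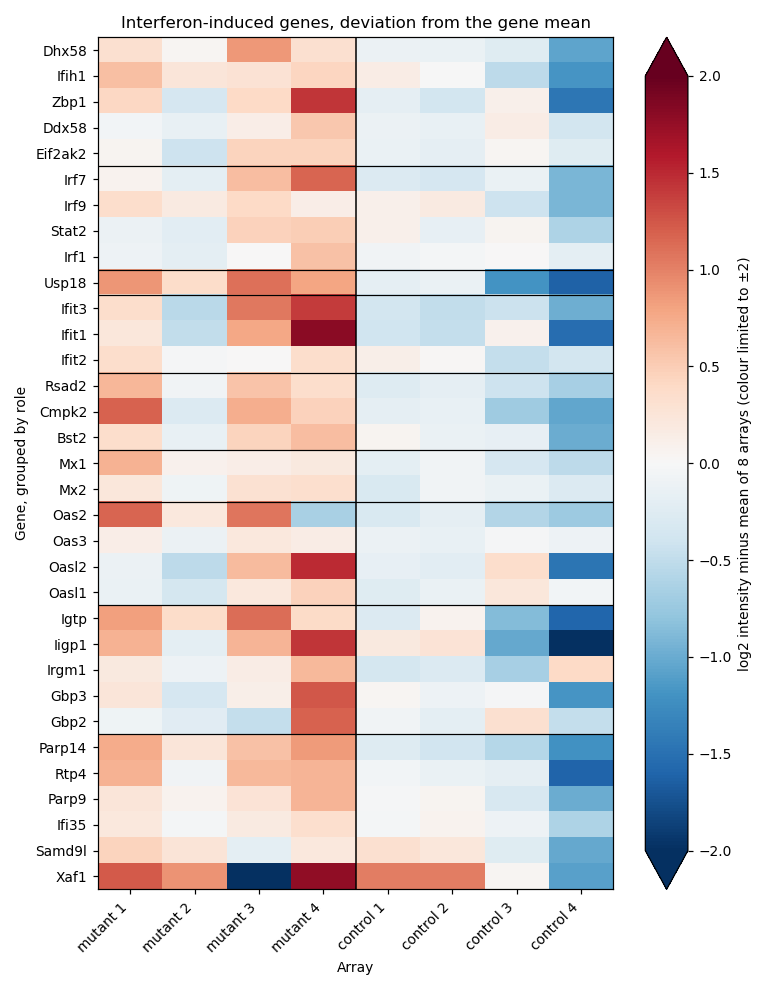
Deviation of each of the 33 genes (rows, grouped by role) from its own mean over the 8 arrays (columns, mutants left of the line), in log2 units with colours limited to ±2. Control 4 is the lowest array for 25 genes, mutant 4 the highest for 19, and the dark cell of Xaf1 is mutant 3.

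The arrays within a genotype differed widely for this programme. The mean over the 33 genes was 9.82, 9.36, 9.70 and 10.12 in mutants 1 to 4, against 9.35, 9.34, 9.17 and 8.56 in controls 1 to 4. Mutant 2 read like controls 1 and 2, and control 4 lay far below the other controls. Control 4 was the lowest of the 8 arrays for 25 of 33 genes, against 15.4% of all genes, and was below every other array by at least 0.5 for 16 of 33, against 1.5%. Mutant 4 was the highest for 19 of 33, against 16% of all genes, mutant 1 for 8 (11.4% of all genes) and mutant 3 for 6 (14.4%). Mutant 2 was highest for 0 of 33, against 5.09% of all genes.

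The sensors of foreign nucleic acid were higher in all 5 cases, with differences from 0.24 to 0.95. Dhx58 encodes LGP2, a regulator of the RNA sensors RIG-I and MDA5. It read 8.17, 7.88, 8.71 and 8.17 in mutants 1 to 4, against 7.73, 7.71, 7.61 and 6.79 in controls 1 to 4. The genotypes did not overlap, and control 4 lay well below the other controls. The difference was 0.77 (SE 0.25, adjusted p = 0.221 in limma), a 1.71-fold higher signal, and 0.55 without control 4. Ifih1, which encodes MDA5, the sensor of long double-stranded RNA, read 10.24, 9.88, 9.93 and 10.08 in mutants, against 9.79, 9.64, 9.12 and 8.46 in controls. Its mutant arrays were close together and the controls spread downward in replicates 3 and 4. It differed by 0.79 (SE 0.27, adjusted p = 0.245 in limma), and by 0.52 without control 4. Zbp1, a sensor of Z-form nucleic acid, differed by 0.95 (SE 0.43) with overlapping arrays. Differences were 0.26 (SE 0.19) for Eif2ak2, the RNA-activated kinase PKR, and 0.24 (SE 0.17) for Ddx58, which encodes RIG-I.

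The transcription factors that carry the response differed by 0.15 to 0.83. Irf7, which drives interferon alpha genes and is itself induced, read 8.55, 8.29, 9.10 and 9.64 in mutants, against 8.21, 8.14, 8.34 and 7.56 in controls. Only mutant 2 overlapped the controls, and mutant 4 was the highest. The difference was 0.83 (SE 0.30, adjusted p = 0.257 in limma). Irf9, which binds DNA at the response element together with Stat2, read 10.12, 9.94, 10.16 and 9.90 in mutants, against 9.87, 9.94, 9.35 and 8.85 in controls. Here mutants 2 and 4 and control 2 lay together, and the low arrays were controls 3 and 4. Irf9 differed by 0.53 (SE 0.23, adjusted p = 0.324 in limma), and by 0.31 without control 4. Stat2 differed by 0.31 (SE 0.22) and Irf1, which is induced mainly by interferon gamma, by 0.15 (SE 0.16).

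Usp18, the protease that removes the ubiquitin-like ISG15 from proteins and damps the interferon receptor, had the largest difference of the list. It read 11.93, 11.41, 12.15 and 11.83 in mutants 1 to 4, against 10.87, 10.91, 9.85 and 9.43 in controls 1 to 4. All mutants lay above every control, and within the controls replicates 3 and 4 were lower than replicates 1 and 2. The difference was 1.57 (SE 0.34, adjusted p = 0.178 in limma), a 2.96-fold higher signal.

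The IFIT proteins bind RNA that lacks the marks of the cell's own messages. Ifit3 read 10.07, 9.18, 10.78 and 11.12 in mutants, against 9.36, 9.23, 9.30 and 8.74 in controls. Mutant 2 lay at the level of controls 1 to 3 and the other mutants lay above. Ifit1 read 10.84, 10.11, 11.38 and 12.41 in mutants, against 10.21, 10.13, 10.70 and 9.08 in controls, so that mutant 2 was below 3 of the controls. The differences were 1.13 (SE 0.39, adjusted p = 0.244 in limma) for Ifit3 and 1.16 (SE 0.51, adjusted p = 0.322) for Ifit1. Ifit2 differed by 0.34 (SE 0.16). Ifit3 has a near-identical neighbour, Ifit3b, and the sources used here do not say whether its probes tell them apart.

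Rsad2, Cmpk2 and Bst2 act on nucleotides or membranes. Rsad2 encodes viperin, which makes a chain-terminating nucleotide, and read 9.02, 8.28, 8.93 and 8.70 in mutants, against 8.10, 8.17, 7.94 and 7.69 in controls. The genotypes did not overlap, though mutant 2 was only slightly above control 2. The difference was 0.76 (SE 0.18, adjusted p = 0.187 in limma). Cmpk2, a mitochondrial nucleotide kinase, read 8.61, 7.15, 8.15 and 7.88 in mutants, against 7.24, 7.27, 6.72 and 6.38 in controls. Mutant 2 again lay among the controls, and the difference was 1.05 (SE 0.32, adjusted p = 0.211 in limma). Bst2, or tetherin, which holds budding viruses at the cell surface, differed by 0.63 (SE 0.25).

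Mx1 and Mx2 encode dynamin-like GTPases that block viral replication, and the Mx1 allele of C57BL/6 mice is known to be defective. Mx1 read 6.72, 6.11, 6.16 and 6.22 in mutants, against 5.83, 5.95, 5.68 and 5.50 in controls. The genotypes did not overlap, but every value lay below the median probe set, so the signal was dim throughout. It differed by 0.56 (SE 0.16, adjusted p = 0.19 in limma) and Mx2 by 0.38 (SE 0.11).

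The OAS family makes oligoadenylates that activate RNase L. Oas2 read 9.09, 8.14, 9.01 and 7.29 in mutants, against 7.63, 7.76, 7.34 and 7.20 in controls. Unlike most of the list, its low mutant was mutant 4, which lay among the controls. The difference was 0.90 (SE 0.38, adjusted p = 0.309 in limma), and it was 1.27 without mutant 4 (adjusted p = 0.0307). The fit without mutant 4 called 1316 of all 18193 genes. Oas3 was dim on all arrays, at 6.38, 6.13, 6.45 and 6.39 in mutants, against 6.12, 6.10, 6.22 and 6.14 in controls, and differed by 0.19 (SE 0.09, adjusted p = 0.332). Among the OAS-like proteins Oasl2 differed by 0.74 (SE 0.50), with 10.13 in mutant 4 and 7.18 in control 4 as its extremes. Oasl1, a translational inhibitor of Irf7 in mice, differed by 0.10 (SE 0.18).

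The GTPases of the GBP and immunity-related families attack the vacuoles of intracellular pathogens and respond to interferon gamma as well. Igtp read 10.96, 10.50, 11.25 and 10.52 in mutants, against 9.86, 10.21, 9.27 and 8.55 in controls. The genotypes did not overlap, and controls 3 and 4 were the low arrays. The difference was 1.33 (SE 0.35, adjusted p = 0.189 in limma). Iigp1 read 10.35, 9.46, 10.34 and 11.08 in mutants, against 9.85, 9.93, 8.64 and 7.60 in controls, so mutant 2 was below controls 1 and 2 while controls 3 and 4 were far lower. It differed by 1.31 (SE 0.55, adjusted p = 0.309 in limma), and by 0.84 without control 4. Irgm1 differed by 0.45 (SE 0.24). It departed from the list in control 4, which at 10.65 was its highest control. Without that array it differed by 0.65 (adjusted p = 0.229) and its genotypes did not overlap. Gbp3 and Gbp2 differed by 0.63 (SE 0.38) and 0.20 (SE 0.35), both with mutant 4 highest.

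Of the remaining genes Parp14, a mono-ADP-ribosyltransferase of macrophage signalling, had the smallest p of the whole list. It read 9.99, 9.49, 9.83 and 10.10 in mutants, against 8.99, 8.87, 8.68 and 8.04 in controls. The lowest mutant was above the highest control by a wide margin. The difference was 1.20 (SE 0.22, adjusted p = 0.135 in limma), a 2.3-fold higher signal, and 1.00 without control 4 (adjusted p = 0.0881). Without mutant 4 it was 1.12 (adjusted p = 0.0351 in limma), and Parp14 and Oas2 were then the 2 list genes past the threshold. That fit called 2 of 33 list genes, against 1316 of all 18193 genes. Rtp4, a chaperone of receptor trafficking that is strongly induced by interferon, read 12.80, 12.03, 12.74 and 12.78 in mutants, against 12.05, 11.97, 11.91 and 10.50 in controls. Mutant 2 lay with controls 1 to 3, and control 4 was far below. It differed by 0.98 (SE 0.36, adjusted p = 0.261 in limma), and by 0.61 without control 4. Parp9, which pairs with the ubiquitin ligase Dtx3l, differed by 0.64 (SE 0.24), Ifi35 by 0.35 (SE 0.15) and Samd9l, an inhibitor of viral translation, by 0.35 (SE 0.29).

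**Figure D2:**
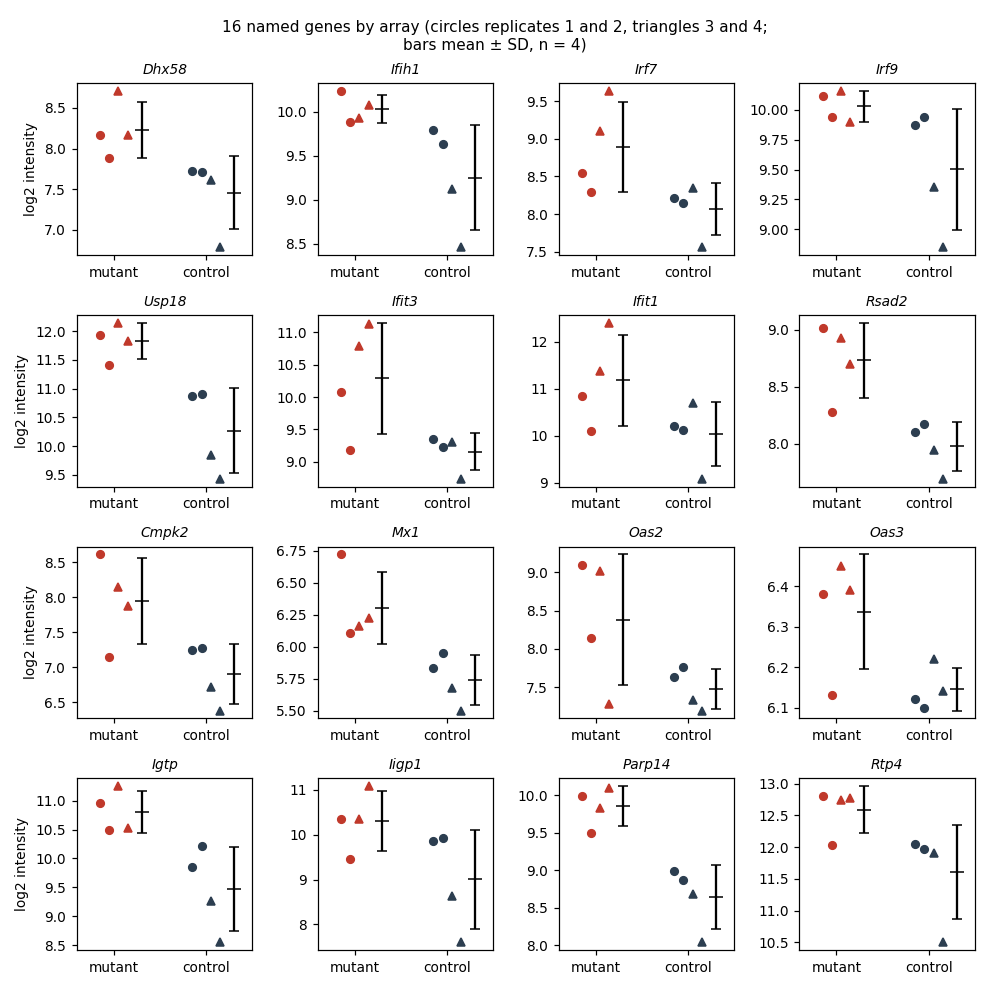
Log2 intensity of 16 genes on each array, mutants left of controls, with circles for replicates 1 and 2, triangles for replicates 3 and 4, and bars for the mean ± SD (n = 4). Parp14 and Usp18 show groups that do not overlap, and in Ifit1 and Cmpk2 mutant 2 lies among the controls.

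Xaf1, a pro-apoptotic partner of XIAP, was the only gene of the list with a negative difference, -0.49 (SE 1.39), and a single array stood apart. Its brighter probe set read 12.05, 11.72, 5.95 and 12.59 in mutants 1 to 4, against 11.84, 11.85, 10.86 and 9.73 in controls 1 to 4. Mutant 3 was far below every other array. The dimmer probe set read 9.86, 9.71, 11.80 and 9.31 in mutants, against 9.79, 9.70, 10.57 and 9.66 in controls, with mutant 3 the highest and control 3 next. The 2 probe sets thus ran in opposite directions in mutant 3. No direction can be given for Xaf1, and the reason was not tested. Xaf1 was the 1 gene whose further probe set had the opposite sign: of 18 further probe sets for 13 genes 17 had the same sign as the one used, all 18 were positive and 0 passed over the 34945 probe sets tested (limma).

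**Figure D3:**
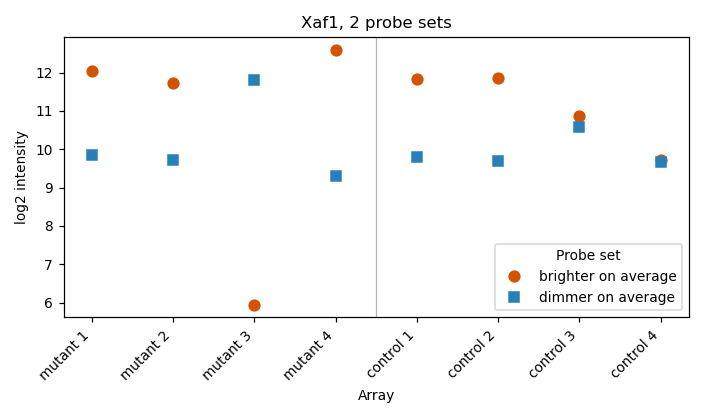
Log2 intensity of the 2 Xaf1 probe sets on each array, mutants left of the line. In mutant 3 the probe set that is brighter on average reads 5.95 and the dimmer one 11.80.

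The difference between genotypes was larger in replicates 3 and 4 than in replicates 1 and 2. The median over the 33 genes was 1 within replicates 3 and 4 and 0.145 within replicates 1 and 2, against -0.00707 and -0.008 over all genes. Positive differences numbered 32 of 33 and 26 of 33, against 48.6% and 48.5% of all genes. Within replicates 3 and 4, 24 of 33 were higher at an unadjusted p under 0.05, against 4.66% of all genes. Within replicates 1 and 2, 3 of 33 were, against 3.77%: Usp18, Mx1 and Parp14. With these 4 arrays fitted alone the count was 8 of 33, against 11.3% of all genes. Both mutants lay above both controls for 27 of 33 genes in replicates 3 and 4, against 17.1% of all genes, and for 12 of 33 in replicates 1 and 2, against 27.1%. No gene of the 18193 passed the adjusted limma test within either pair of replicates, so 0% is the background of that count.

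Iigp1, Usp18 and Ifit3 had the smallest p for the difference between the pairs of replicates. Iigp1 differed by 2.59 (SE 0.44) within replicates 3 and 4 and by 0.02 (SE 0.44) within replicates 1 and 2. Usp18 differed by 2.35 (SE 0.22) and 0.78 (SE 0.22), and Ifit3 by 1.93 (SE 0.32) and 0.33 (SE 0.32), in the same order. The change between the pairs was 2.57 for Iigp1 (SE 0.63), 1.56 for Usp18 (SE 0.31) and 1.60 for Ifit3 (SE 0.46). None of these passed over all genes (adjusted p = 1 for each in limma), where 0% of genes passed. The change was positive for 31 of 33 genes, against 50.1% of all genes, and 9 of 33 had an unadjusted p under 0.05 in that direction, against 2.86%. The 2 exceptions were Xaf1 and Oas2, which differed by 0.89 within replicates 3 and 4 and 0.92 within replicates 1 and 2.

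**Figure D4:**
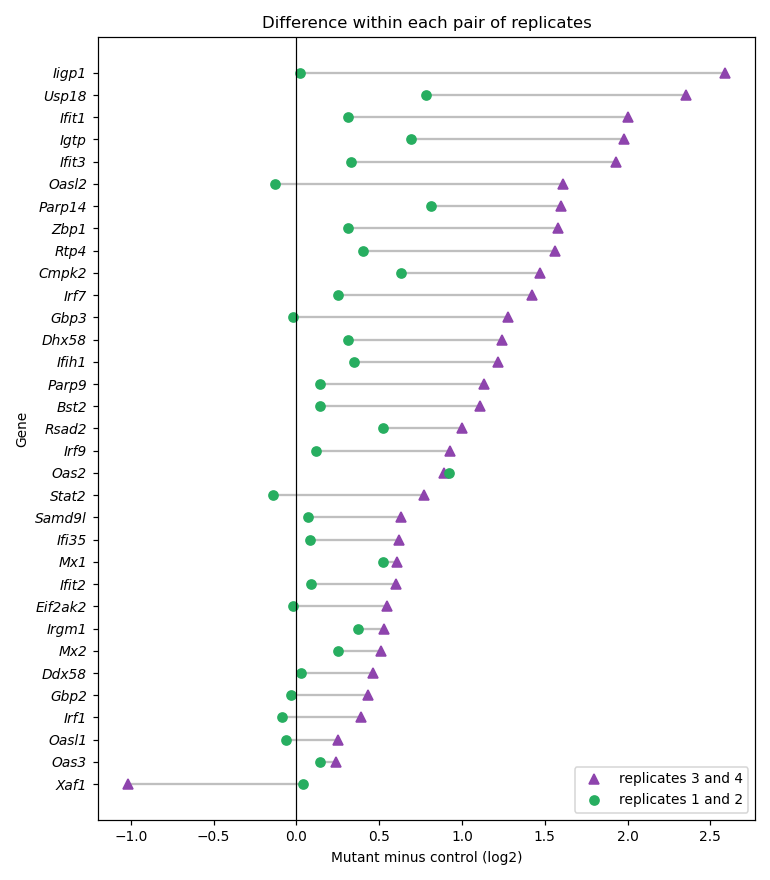
Mutant minus control difference (log2) of each gene within replicates 3 and 4 (triangles) and within replicates 1 and 2 (circles), each from 2 mutant and 2 control arrays. The triangle lies right of the circle for 31 of 33 genes.

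These values depended on single arrays. Without control 4 the list median within replicates 3 and 4 was 0.71, with 32 of 33 genes positive, and without mutant 4 it was 1.03, with 31 positive. Within replicates 1 and 2 the median was 0.39 without mutant 2, with 31 genes positive, and -0.02 without mutant 1, with 15 positive. Over all replicates without control 4 the median was 0.414, 32 of 33 genes were positive (49% of all genes) and 12 had an unadjusted p under 0.05 (5.07% of all genes). The genotypes then did not overlap for 9 of 33 genes, against 5.13% of all genes, and 0 of 33 passed over all genes (limma), against 0.17%. Without mutant 2 the genotypes did not overlap for 21 of 33 genes, against 5.39% of all genes. Leaving out control 4 moved the difference of 15 genes by over 1.5 times. Besides Irf9, Ifih1, Iigp1 and Rtp4, it was then 0.62 for Zbp1, 0.41 for Parp9, 0.40 for Bst2, 0.38 for Oasl2, 0.35 for Gbp3 and 0.20 for Ifi35. It was 0.16 for both Stat2 and Ddx58, 0.08 for Gbp2, 0.07 for Samd9l and -0.94 for Xaf1. Without mutant 4, Ifit1 differed by 0.75. With the mean of all its probe sets in place of the brightest, Parp14 differed by 0.69, Cmpk2 by 0.60 and Dhx58 by 0.38. The spiked poly-A transcripts, added before labelling, were dimmer for mutants 3 and 4 and for control 3, at 6.34 to 6.91, than for the remaining arrays, at 7.65 to 8.15. The list median was 0.71 among the 3 arrays with dim transcripts and 0.48 among the other 5.

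No gene upstream of the programme passed over all genes (limma), and the lists differed in their medians. Of 19 interferon genes 10 were measured, and only 2 of them exceeded the median probe set throughout, against 11262 of all 18193 genes. Their median difference was -0.00163, and 1 of 10 was higher at an unadjusted p under 0.05, against 5.84% of all genes. Ifnb1, the interferon beta gene that fibroblasts secrete first, read 6.56, 6.34, 6.50 and 6.53 in mutants, against 6.57, 6.95, 6.64 and 6.43 in controls. These dim values did not separate the genotypes. Receptors and kinases of the pathway had a median of 0.186 (0.112 without control 4) over 10 genes. Of these, 2 were higher at an unadjusted p under 0.05, against 5.84% of all genes. The type I receptor gene Ifnar1 differed by 0.27 (SE 0.13), or 0.15 without control 4, and Ifngr1, a chain of the interferon gamma receptor, by 0.54 (SE 0.20). Sensing genes outside the list had a median of 0.345 over 16 genes, with 5 higher at that level, against 5.84% of all genes. Irf5, a transcription factor downstream of Toll-like receptors, differed by 0.94 (SE 0.28). Ikbke, a kinase that activates Irf3 and Irf7, differed by 0.76 (SE 0.17, adjusted p = 0.187 in limma) and did not overlap between genotypes. The 11 regulators that restrain the pathway had a median of 0.0885 (-0.0857 without control 4). Of these, 2 were higher at that level, against 5.84% of all genes, including Samhd1, a nucleotide hydrolase, at 1.02 (SE 0.26).

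A second set of 48 measured genes that interferons are known to induce also read higher in mutants. Their median difference was 0.556 (0.391 without control 4), and 44 were positive, against 48.3% of all genes. At an unadjusted p under 0.05, 18 were higher and 0 lower, against 5.84% and 9.69% of all genes. The genotypes did not overlap for 14, all of them higher, against 2.89% of all genes. None passed over all genes (limma). Within replicates 3 and 4 the median was 0.911 and within replicates 1 and 2 it was 0.258. Ms4a4c, a membrane protein of leukocytes, differed by 0.66 (SE 0.16), Znfx1, a helicase that senses viral RNA, by 0.57 (SE 0.15) and Tor3a by 0.66 (SE 0.18). Class I presentation genes had a median of 0.288 over 9 genes, all positive. The median was 0.617 within replicates 3 and 4 and 0.0201 within replicates 1 and 2. Without control 4 it was 0.223, and not every gene was positive. The immunoproteasome gene Psmb8 differed by 0.97 (SE 0.35), or 0.60 without control 4. Chemokines that interferon or inflammation induces did not read higher as a set, with a median of -0.335 over 7 genes. Their differences ran from -0.67 to 0.18, 2 were positive, and 0 had an unadjusted p under 0.05 in either direction (limma). Their mean was 10.32, 9.99, 9.97 and 12.10 in mutants 1 to 4, against 10.83, 10.42, 11.34 and 10.64 in controls 1 to 4. Mutant 4 was thus the highest array here as well.

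Macrophage markers also read higher in mutants, on partly the same arrays. The mean of 25 markers was 13.06, 13.04, 13.10 and 10.99 in mutants 1 to 4, against 12.28, 12.46, 11.04 and 10.89 in controls 1 to 4. Control 4 was the lowest array and control 3 the next lowest control in both sets of genes, and mutants 1 and 3 lay above every control in both. Mutants 4 and 2 differed between the sets. Mutant 4, the highest array for the interferon-induced genes, was the second lowest for macrophage markers. Mutant 2, the lowest mutant for the interferon-induced genes, was level with mutants 1 and 3 for macrophage markers. All 25 markers had positive differences, against 48.3% of all genes, with a median of 0.806 (0.515 without control 4). At an unadjusted p under 0.05, 6 of 25 were higher, against 5.84% of all genes. With this mean as a covariate the median of the interferon-induced genes was 0.59. Single genes moved more with the covariate, to 0.41 for Oas2 and 0.28 for Irf9, while Ifit1 reached 1.49. The 14 mesenchyme markers had a median of -0.12 (-0.25 without control 4). Their differences ran from -0.38 to 0.92, and 5 were positive. At an unadjusted p under 0.05 (limma) 3 were lower, against 9.69% of all genes. They were Postn at -0.37 (SE 0.12), Col3a1 at -0.38 (SE 0.12) and Col1a1 at -0.37 (SE 0.15). Mutants lay below controls with no overlap for 3 markers, against 5.18% of all genes. They were Postn, Col1a1 and Col1a2, which encode matrix proteins, and Col1a2 differed by -0.16 (SE 0.08). The macrophage covariate was itself higher in mutants 1 to 3 than in every control. Its fit therefore cannot separate macrophage content from genotype. The part of these cell types in the interferon-induced genes was not tested. Markers of plasmacytoid dendritic cells, the leukocytes known for abundant interferon alpha, had a median of -0.00904 over 6 genes. Their defining gene Siglech read 6.95, 6.85, 6.95 and 6.72 in mutants, against 6.72, 6.62, 6.82 and 6.96 in controls, around or below the median probe set. Markers of T and NK cells, a source of interferon gamma, had a median of 0.127 over 6 genes. Of these, 1 exceeded the median probe set throughout, against 11262 of all 18193 genes.

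**Figure D5:**
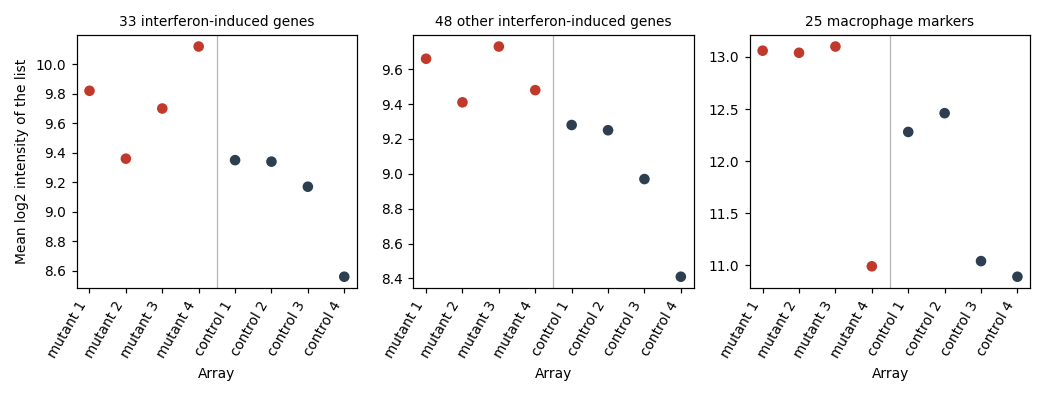
Mean log2 intensity per array of the 33 interferon-induced genes (left), 48 other interferon-induced genes (middle) and 25 macrophage markers (right), mutants left of the line in red and controls in dark blue, each panel with its own scale. Mutant 4 is highest in the left panel at 10.12 and reads 10.99 in the right panel, where mutants 1 to 3 read 13.04 to 13.10.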

How the data were processed

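RNA was hybridised to Affymetrix mouse arrays, per the labels' protocols. The deposited log2 values, 1 for each probe set on each array, were made by the authors with RMA per the submitters' processing notes. The tool's version and a genome build are not given in the sources used here. Values ran from 3.21 to 15.18 with array medians of 6.90 to 6.96 and were used as deposited. Of 45101 probe sets, 34945 had 1 gene symbol, updated by Entrez identifier through a RefSeq table (34741 matched). The brightest probe set on average stood for each of 18193 genes.

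The comparisons used limma 3.58.1 under R 4.3.3 (functions lmFit, eBayes, two-sided, Benjamini-Hochberg over all genes, threshold 0.05) on 8 arrays. Differences within each pair of replicates, and the change between pairs, came from a model with 4 cell means. SE values are limma's moderated errors. The median probe set is 6.94. The members and lists were chosen with earlier results of these data known. Values of every array are given for the 2 genes of each role with the smallest p (1 where a role has 2 genes) and the 3 with the smallest p for the change between pairs; genes outside the list are from the 3 smallest p of each list, and Ifnb1, Ifnar1, Siglech, Xaf1 and Col1a2 were named after their values were seen. Tested on simulated data with 18193 genes, the fit made 184 calls, 6 of them false. It found 80 of 100 genes given a log2 change of 1 and 98 of 100 given a change of 2. These rates hold for the simulated spread and do not give the chance of a call on these arrays. Here Usp18 differed by 1.57 and did not pass (adjusted p = 0.178 in limma). Alternatives covered normalization, probe set choice, dim probe sets, blocks, a macrophage covariate and leaving out each array.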

Additional observations from a re-analysis of the deposited data

Results flagged for a closer look

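Among 66 groups of 4 arrays (33 genes, 2 genotypes), 5 had 1 array whose gap to its nearest neighbour exceeded Dixon's critical value as a share of the group's range. Chance alone gives this in about 1 in 20 groups. Xaf1 read 5.95 in mutant 3, against 11.72 to 12.59 in the other mutants. Rtp4 read 12.03 in mutant 2, against 12.74 to 12.80 in the other mutants. In control 4, Dhx58 read 6.79 against 7.61 to 7.73 in the other controls, Gbp3 read 9.16 against 10.24 to 10.38, and Rtp4 read 10.50 against 11.91 to 12.05. Their causes were not tested.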

How the results depend on the processing

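Over all alternatives the median difference of the list lay between 0.41 (without control 4) and 0.78 (without mutant 2), and all 16 genes followed singly kept a positive difference. List genes past the threshold over all genes numbered 0 in every setting except without mutant 4, where 2 passed, so the range with 1 array left out was 0 to 2. With 1 array left out, list genes higher at an unadjusted p under 0.05 ranged from 10 (without mutant 3, 3.46% of all genes) to 20 (without mutant 2, 4.79%) against 16 (5.84%). Those with no overlap ranged from 8 (without mutant 1, 3.45% of all genes, or mutant 3, 3.6%) to 21 (without mutant 2, 5.39%) against 8 (2.89%). Over the same settings the share of all genes was highest without mutant 4, at 10.2% and 10.9%, with 12 and 9 list genes. Genes called in all ranged from 0 (without mutant 1, mutant 2 or control 1) to 1316 (without mutant 4) against 16. They numbered 1 without mutant 3 or control 3, 2 without control 2 and 31 without control 4. With the macrophage covariate they were 53. A further alternative, chosen after seeing the data, blocked the arrays by dim or brighter poly-A transcripts, and 2 genes were called. These blocks were inferred from the spiked signal and are not named in the labels. With the 4 arrays of replicates 1 and 2 fitted alone, 8 list genes were higher at an unadjusted p under 0.05 (11.3% of all genes), against 3 (3.77%). Deviations of a mutant and a control with the same replicate number correlated at 0.47, 0.42, -0.09 and 0.37 for numbers 1 to 4. With unlike numbers the correlations ran from -0.64 to 0.61, so these values do not settle whether the numbers pair the samples. With the replicate block 0 genes were called in all (limma) and 16 list genes were higher at an unadjusted p under 0.05 (8.55% of all genes). Adjusted p for Oas2 ran from 0.0307 to 0.599 and for Parp14 from 0.0351 to 0.41 over the alternatives. The causes were not tested. Mx1 and Oas3 lay below the median probe set on every array, where a small difference says little.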
